A study of Mus musculus with 9 samples.

Results

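A set of 10 genes that control entry into mitochondrial apoptosis were followed across 9 mouse testes: Bcl2, Bcl2l1, Mcl1, Bax, Bak1, Bcl2l11, Bbc3, Pmaip1, Bid and Trp53. They were chosen by symbol, are 10 of the 22337 genes in the table, and all 10 passed the filter on low counts in every edgeR test. Whole testes of 3-week-old mice were sequenced as messenger RNA, with 3 wild-type testes, 3 heterozygous testes (Piwil4 WT/R264W) and 3 homozygous mutant testes (Piwil4 R264W/R264W). Piwil4 encodes a PIWI protein that, with small RNAs, silences transposons in the nuclei of fetal germ cells. The R264W change, an arginine to tryptophan substitution in the small RNA-binding PAZ domain, was knocked into C57BL/6 zygotes with CRISPR-Cas9, so the mutation is not restricted to a cell type and is carried on 1 or 2 alleles. Wild-type testes carried it on none, and the labels name no treatment for any group. The question put to these genes was whether their transcript levels differed by Piwil4 genotype and with how far each testis had come in the first wave of spermatogenesis.

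Mitochondrial apoptosis is decided by proteins of the BCL2 family. Prosurvival members (BCL2, BCL-XL from Bcl2l1, and MCL1) hold back the effectors BAX and BAK, which otherwise open pores in the outer mitochondrial membrane and release cytochrome c. BH3-only proteins (BIM from Bcl2l11, PUMA from Bbc3, NOXA from Pmaip1, and BID) bind the prosurvival members or the effectors and tip the balance toward death, and p53, from Trp53, is a transcription factor that activates Bax, Bbc3 and Pmaip1 after DNA damage. In the testis, a wave of germ cell apoptosis accompanies the first round of spermatogenesis, and Bax and the BCL2 family are known for setting how many germ cells survive it.

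The libraries held between 17964135 and 24279056 counts, and 3 counts corresponded to between 0.122 and 0.172 CPM (counts scaled to a common library size). Piwil4 itself was low in every testis, between 1.03 and 2.10 CPM, and since the mutation replaces a residue, its transcript level does not check the genotype labels. The labels number the replicates but do not state that each testis came from a separate animal, so p-values measure the spread between these samples. Markers of muscle, adipose tissue and epididymis were low or sporadic. Red blood cell genes were present in every testis, from 82.3 CPM in sum in Piwil4 R264W/R264W replicate 3 to 360.0 CPM in wild-type replicate 2. A summed list of 8 epididymal genes reached 49.7 CPM in Piwil4 R264W/R264W replicate 1 against 0.819 to 8.57 CPM in the other testes, and its part in the results was not tested.

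The testes differed in how far the first wave had come. This was expressed as a first-wave score, the mean log2 CPM of 19 genes of spermatids (Acrv1, Tnp1, Prm1 and others), none of which belongs to the 10 regulators. In increasing order the score was 0.60 in Piwil4 WT/R264W replicate 3, 1.22 in wild-type replicate 3, 2.26 in Piwil4 R264W/R264W replicate 1, 2.40 in wild-type replicate 2, 3.36 in Piwil4 WT/R264W replicate 2, 3.51 in Piwil4 R264W/R264W replicate 2, 4.79 in Piwil4 WT/R264W replicate 1, 5.57 in Piwil4 R264W/R264W replicate 3 and 5.75 in wild-type replicate 1. The mean score was 3.13 ± 2.35 (SD, n = 3) in wild-type, 2.92 ± 2.13 (SD, n = 3) in Piwil4 WT/R264W and 3.78 ± 1.67 (SD, n = 3) among homozygous testes. The spread within each genotype was thus larger than the differences between genotype means. In whole testes, fewer cells of a type and less RNA per cell cannot be told apart, so a transcript that changes along the score may do so through either.

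The regulators that were most and least abundant per transcript length were both prosurvival genes, and the sequences before their start sites are shown as these 2 extremes of level. Bcl2l1 was the highest of the 10, with 67.1 ± 1.98 FPKM (a level scaled by the authors to transcript length and library size; SD, n = 9), and Bcl2 the lowest, with 0.311 ± 0.0943 FPKM. The RefSeq promoter table (build GRCm38.p6) held 14 windows of 300 bases for 9 of the 10 genes. The 250 bases before the start of Bcl2 and before the most upstream start of Bcl2l1 are shown 5′ to 3′ on the gene's strand, with every GGGCGG (a GC box, read on both strands, so also as CCGCCC) in capitals.
Bcl2, chr1:106714291-106714540, minus strand: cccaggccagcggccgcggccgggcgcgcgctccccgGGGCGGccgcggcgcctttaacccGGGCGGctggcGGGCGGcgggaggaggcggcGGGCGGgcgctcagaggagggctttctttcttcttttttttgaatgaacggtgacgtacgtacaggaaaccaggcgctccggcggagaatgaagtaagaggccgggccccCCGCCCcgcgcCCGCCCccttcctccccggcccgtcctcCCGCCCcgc
Bcl2l1, chr2:152831729-152831978, minus strand: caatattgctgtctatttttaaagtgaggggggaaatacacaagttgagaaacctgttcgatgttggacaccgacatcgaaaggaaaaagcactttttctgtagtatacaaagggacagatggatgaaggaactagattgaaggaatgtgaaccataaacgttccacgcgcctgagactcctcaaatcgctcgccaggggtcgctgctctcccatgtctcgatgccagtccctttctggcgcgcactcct
The Bcl2 window held 7 GC boxes, 76.0% G and C, and 44 CpG dinucleotides, whereas the 3 Bcl2l1 windows held 0 GC boxes, 49.3% to 55.7% G and C, and 1 to 22 CpG dinucleotides. Over all 32851 windows of the table, the medians were 52.7% G and C and 7 CpG dinucleotides, and 35.7% of windows held a GC box, compared with 9 of the 14 windows of the regulators (6 of 9 genes). The Bbc3 and Bcl2l11 windows were similarly rich in G and C (71.0% to 78.0%), and those of Trp53 and Bak1, genes of intermediate level, held 0 GC boxes like those of Bcl2l1.

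Because Bax, Bbc3 and Pmaip1 are known p53 targets, the windows were also searched for the 10-base consensus half-site of p53 on both strands. It was present in 2 of the 14 windows, those of Bax and Trp53, and in 8.36% of all windows of the table. The 3 windows of Bbc3 held no exact match, and no Pmaip1 window was analysed here. Only exact matches were counted, so a site that differs from the consensus by a base is missed. The lack of a match in Bbc3 therefore does not show the lack of a p53 site. The matches, in capitals with 10 bases on each side, began 201 bases before the start of Bax and 75 bases before that of Trp53.
Bax, chr7:45467080-45467109, minus strand: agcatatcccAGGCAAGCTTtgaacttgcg
Trp53, chr11:69580274-69580303, plus strand: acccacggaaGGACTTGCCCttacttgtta
The E-box CACGTG, its own reverse complement, was present in 1 window each of Bbc3, Bax and Trp53 and in 7.15% of all windows. TATAAA, searched on both strands, was present in 1 regulator window, that of Trp53, and in 13.6% of all windows. These matches describe letters in the windows and do not show binding.

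Per transcript length, the 10 regulators covered a wide range of levels. After Bcl2l1 came Mcl1 with 42.1 ± 3.25 FPKM, Bax with 15.6 ± 2.15, Trp53 with 14.1 ± 1.54, Bak1 with 7.50 ± 0.912, Bid with 5.01 ± 0.755, Pmaip1 with 3.54 ± 1.01, Bcl2l11 with 3.16 ± 0.879, Bbc3 with 0.839 ± 0.292 and Bcl2 with 0.311 ± 0.0943 (mean FPKM ± SD, n = 9 each). The ranges of Bax and Trp53 overlapped, as did those of Bid and Pmaip1 and those of Pmaip1 and Bcl2l11, so these neighbours were not separated by more than their spread. Both Bbc3 and Bcl2 rested on few counts, with 18 to 39 counts per testis for Bbc3 and 23 to 71 for Bcl2, which limits their precision.

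Among the prosurvival genes, Bcl2l1 varied least. Its FPKM was 68.15, 68.17 and 65.97 in wild-type replicates 1 to 3, 63.22, 69.37 and 65.98 in Piwil4 WT/R264W, and 69.48, 67.32 and 66.24 in Piwil4 R264W/R264W. Thus BCL-XL transcripts stayed within a narrow band in all 9 testes, and in CPM they spanned 0.27 on the log2 scale. Mcl1, which encodes a short-lived prosurvival protein, was at 38.64, 46.60 and 39.38 FPKM in wild-type, 43.75, 40.16 and 47.83 in Piwil4 WT/R264W, and 40.76, 40.64 and 40.85 in Piwil4 R264W/R264W testes. The genotypes overlapped, and the 3 homozygous testes lay closest together in this unit.

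Bcl2, the founding prosurvival gene, had the widest range of the 10 in log2 CPM (1.34), although the SD was larger for Bbc3 (0.46) than for Bcl2 (0.41). Its FPKM was 0.21, 0.24 and 0.48 in wild-type, 0.35, 0.29 and 0.36 in Piwil4 WT/R264W, and 0.35, 0.35 and 0.17 in Piwil4 R264W/R264W testes. The highest and the second lowest values both came from wild-type testes. Part of the Bcl2 exons (6.09%) overlaps an antisense transcript in GENCODE, and as the counting is not stated to use strand, reads of both could be mixed.

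For the effectors, Bax was the only regulator whose genotypes did not all overlap. Its FPKM was 11.95, 16.13 and 14.59 in wild-type, 16.63, 17.62 and 18.39 in Piwil4 WT/R264W, and 16.10, 16.15 and 12.62 in Piwil4 R264W/R264W testes. All 3 heterozygous testes lay above every wild-type and every homozygous testis, while wild-type and homozygous testes overlapped. In CPM, 5.31% of all genes tested had non-overlapping groups between heterozygous and wild-type testes. The share was 7.15% between homozygous and heterozygous testes. Bak1 was at 6.77, 8.98 and 7.64 FPKM in wild-type, 6.11, 7.73 and 6.75 in Piwil4 WT/R264W, and 7.10, 7.93 and 8.51 in Piwil4 R264W/R264W testes, with overlap between all genotypes. The exons of Bak1 share 437 bases (18.2%) with those of Ggnbp1 on the opposite strand, whose mean count was 12844, so Bak1 values are uncertain if the counting ignored strand. Bax shares 192 bases (12.2%) with Gm45808 on the same strand, which held a mean count of only 5.70.

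The BH3-only genes varied unequally, with log2 CPM ranges of 0.52 for Bid, 0.76 for Bcl2l11, 1.10 for Pmaip1 and 1.303 for Bbc3. Bcl2l11 was at 2.17, 3.77 and 3.49 FPKM in wild-type, 3.38, 2.23 and 4.86 in Piwil4 WT/R264W, and 3.34, 2.92 and 2.25 in Piwil4 R264W/R264W testes. Pmaip1 was at 2.08, 4.36 and 3.91 FPKM in wild-type, 3.87, 3.26 and 3.51 in Piwil4 WT/R264W, and 5.0, 3.96 and 1.90 in Piwil4 R264W/R264W testes. For both genes all genotypes overlapped. For Pmaip1, the 2 values near 2 FPKM, 1 wild-type and 1 homozygous, came from the 2 testes with the highest first-wave scores.

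Bid was at 3.78, 4.70 and 5.99 FPKM in wild-type, 5.36, 4.73 and 6.04 in Piwil4 WT/R264W, and 4.52, 5.46 and 4.47 in Piwil4 R264W/R264W testes. Bbc3 was at 1.39, 0.93 and 0.61 FPKM in wild-type, 0.58, 1.17 and 0.53 in Piwil4 WT/R264W, and 0.73, 0.68 and 0.93 in Piwil4 R264W/R264W testes. Both overlapped between all genotypes. Bid exons share 628 bases (17.7%) with Bcl2l13 on the opposite strand (mean count 1412), with the same uncertainty as for Bak1. The order of testes for Bbc3 depended on the unit, since wild-type replicate 1 was highest in FPKM and Piwil4 WT/R264W replicate 2, with 2.18 CPM, was highest in CPM.

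Trp53 was at 11.28, 14.21 and 13.56 FPKM in wild-type, 17.04, 13.39 and 15.30 in Piwil4 WT/R264W, and 13.96, 13.93 and 13.91 in Piwil4 R264W/R264W testes. The 3 homozygous values were nearly equal in FPKM and lay within the ranges of both other genotypes. Across all 9 testes, the log2 CPM range exceeded 1 for Bcl2 (1.34), Bbc3 (1.303) and Pmaip1 (1.10), which is 3 of 10 regulators, beside 21.4% of the 14477 genes with a mean of at least 1 CPM. The median range was 0.50 for the regulators and 0.58 for those genes.

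**Figure D1:**
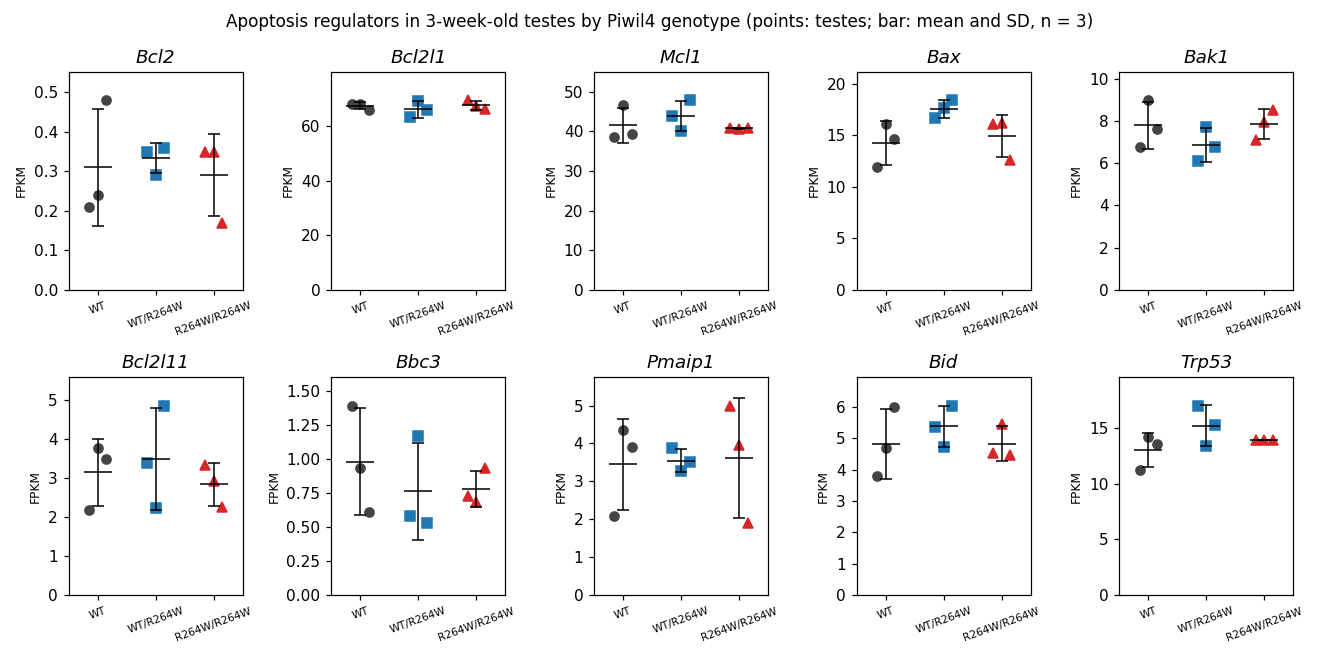
FPKM (y axis, from 0, a separate scale for each gene) of the 10 regulators in each testis, by genotype (x axis: WT, wild-type; WT/R264W; R264W/R264W). Points are testes in replicate order and bars give the mean and SD (n = 3). Only for Bax do the 3 heterozygous testes (16.63 to 18.39 FPKM) lie above all others. Over all genes tested, groups did not overlap in CPM for 5.31% (heterozygous against wild-type) and 7.15% (homozygous against heterozygous).

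When homozygous testes were compared with wild-type, none of the regulators passed the test. By edgeR's quasi-likelihood test, adjusted over 15543 genes with the method of Benjamini and Hochberg, 0 of 10 regulators were called at an adjusted p under 0.05, beside 0% of all genes tested. At an unadjusted p under 0.05 the counts were 0 of 10 regulators and 196 genes (1.26%). DESeq2 called 0 regulators as well, as did limma, whose fits left out Bcl2 for its low FPKM. The log2 fold changes lay between -0.20 (Bbc3, SE 0.36) and 0.10 (Trp53, SE 0.10), with 8 of 10 below 0 and a median of -0.04, beside -0.01 for all genes tested. None of the regulators had non-overlapping groups in this pair, beside 5.68% of all genes.

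How large a difference could have gone unseen varied greatly between genes. For Bcl2l1, the log2 fold change of the homozygous against the wild-type testes was -0.03 with a 95% interval from -0.19 to 0.14, and for Mcl1 it was -0.05 with an interval from -0.26 to 0.15. For these abundant prosurvival genes the intervals were narrow. For Trp53 the interval ran from -0.15 to 0.35, for Bak1 from -0.35 to 0.30, and for Bax from -0.34 to 0.42. For Bcl2 the interval ran from -1.07 to 0.86, for Bbc3 from -1.07 to 0.67 and for Pmaip1 from -0.88 to 0.72, so at 3 testes a group a decrease of 1 on the log2 scale still lay inside the intervals of Bcl2 and Bbc3.

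In homozygous compared with heterozygous testes, 0 of 10 regulators were called, beside 0% of 15463 genes, with adjusted p between 0.948 and 0.983 in edgeR's quasi-likelihood test. At an unadjusted p under 0.05 there were 0 regulators, beside 343 genes (2.22%), and DESeq2 and limma (without Bcl2) called 0 regulators. The log2 fold changes lay between -0.27 (Bcl2l11, SE 0.20) and 0.14 (Bak1, SE 0.15), with a median of -0.11, beside 0.01 for all genes. Bax was 0.22 lower on the log2 scale in the homozygous testes (log2 fold change -0.22, SE 0.13, 95% interval -0.54 to 0.10). It was the 1 regulator of 10 whose groups did not overlap, beside 7.15% of all genes, and the exact permutation test gave p = 0.1 (two-sided), the smallest value that 3 against 3 testes allow.

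In heterozygous compared with wild-type testes, again 0 of 10 regulators were called, beside 0% of 15413 genes, with all adjusted p at 1.0 in edgeR's quasi-likelihood test. At an unadjusted p under 0.05 there were 0 regulators, beside 171 genes (1.11%), and DESeq2 and limma (without Bcl2) called 0 regulators. The log2 fold changes lay between -0.16 (Bak1, SE 0.16) and 0.26 (Bax, SE 0.14), with a median of 0.08, beside -0.02 for all genes. The interval for Bax ran from -0.07 to 0.59, and Bax was the 1 regulator of 10 whose groups did not overlap, beside 5.31% of all genes (exact permutation test, two-sided, p = 0.1). The comparisons of Bax share the 3 heterozygous libraries, so they are not independent of each other.

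**Figure D2:**
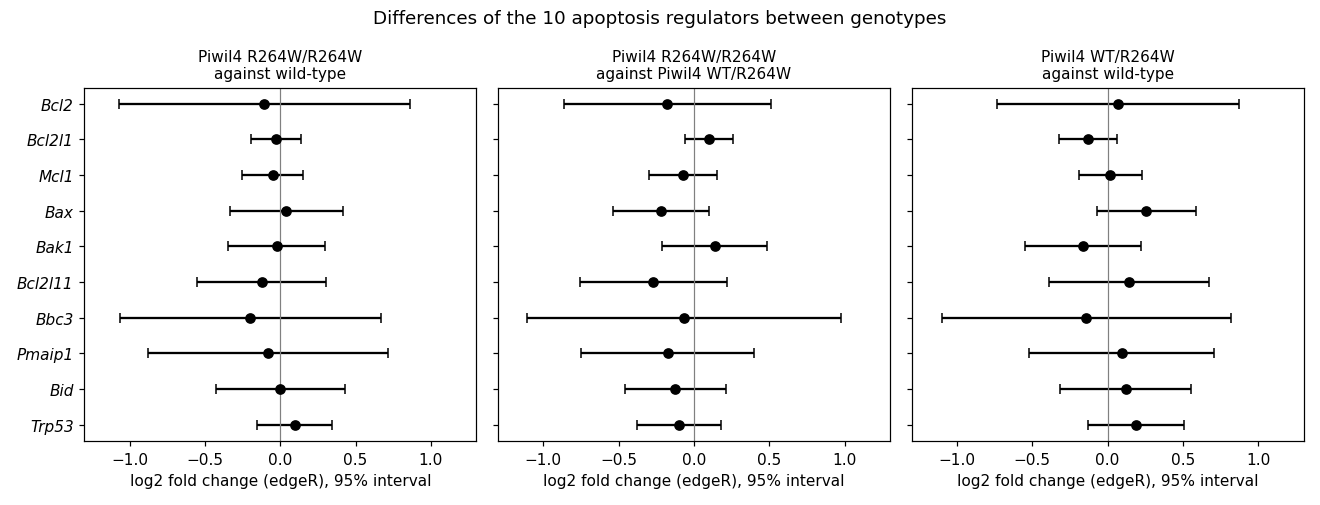
Log2 fold change (x axis) of each regulator (y axis) in the 3 pairs of genotypes, from edgeR, with points for the estimates and bars for 95% intervals. Every interval includes 0, and the intervals are narrowest for Bcl2l1 and Mcl1 and widest for Bcl2 and Bbc3.

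No other apoptosis gene was called between genotypes either. Of 63 further genes of the pathway (other BCL2 proteins, caspases, apoptosome factors, inhibitors of apoptosis, death receptors, and p53 regulators and targets), 55, 55 and 54 passed the filter in the 3 comparisons, and 0 were called in any of them by edgeR's quasi-likelihood test. At an unadjusted p under 0.05 there were 0 between homozygous and wild-type testes. There was 1 between homozygous and heterozygous testes, Cdkn1a, the p53 target that encodes the cell cycle inhibitor p21 (log2 fold change 0.40, adjusted p = 0.948). There was also 1 between heterozygous and wild-type testes, Birc3, an inhibitor of apoptosis (log2 fold change 0.45, adjusted p = 1.0). These 2 were named because they were the only ones, after their values were seen.

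Along the first-wave score, no regulator passed the adjusted threshold, and the share at an unadjusted p under 0.05 was not above that of all genes. The slope on the score was fitted over all 9 testes with genotype as a covariate, and is given in log2 per unit of score. In edgeR's quasi-likelihood test, 0 of 10 regulators were called at an adjusted p under 0.05, whereas 4093 of 15771 genes tested (26%) were called, 17.5% rising and 8.41% falling. At an unadjusted p under 0.05 there were 3 of 10 regulators, beside 39% of all genes (17.3% with a negative slope). These were Mcl1 (slope -0.04, SE 0.017, adjusted p = 0.0850), Bcl2l11 (slope -0.09, SE 0.036, adjusted p = 0.0850) and Pmaip1 (slope -0.12, SE 0.054, adjusted p = 0.126), all with negative slopes.

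In CPM and in increasing order of score, Bcl2l11 was at 16.97, 14.85, 12.87, 13.18, 10.67, 12.57, 15.14, 10.01 and 10.61. Its highest value came from the testis with the lowest score, and its 2 lowest values from the 2 testes with the highest scores. Piwil4 WT/R264W replicate 1, with the third highest score, did not follow, at 15.14 CPM. Piwil4 WT/R264W replicate 2, with a score of 3.36, was nearly as low as those 2 testes, at 10.67 CPM. Its 2.23 FPKM lay between their 2.17 and 2.25 FPKM. In the same order, Pmaip1 was at 9.40, 8.68, 10.77, 12.05, 9.16, 8.95, 10.08, 5.61 and 6.05 CPM. It was thus at 8.68 to 12.05 CPM in 7 testes and lower only in the 2 with the highest scores, Piwil4 R264W/R264W replicate 3 and wild-type replicate 1.

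Mcl1, in the same order, was at 137.25, 128.65, 125.67, 123.47, 118.82, 124.85, 120.68, 107.59 and 118.92 CPM. Its fitted change over the full score range of 5.15 was -0.22 on the log2 scale. Over all alternative fits the Mcl1 slope ran from -0.057 to -0.023, and adjusted p reached 0.478. Bcl2 was at 2.47, 3.42, 2.5, 1.76, 2.18, 2.44, 2.46, 1.32 and 1.58 CPM, with a slope of -0.15 (SE 0.071, adjusted p = 0.134). Its fitted change over the score range was -0.78 on the log2 scale, with a 95% interval from -1.58 to 0.01. Its lowest values again came from the 2 testes with the highest scores.

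Bax was at 16.18, 13.11, 14.52, 14.80, 16.19, 14.77, 15.28, 11.55 and 11.82 CPM in order of score. It was lowest in the 2 testes with the highest scores and showed no order among the other 7 (slope -0.05, adjusted p = 0.241). Bid ranged from 9.12 to 13.11 CPM (slope -0.06, adjusted p = 0.258) and Bbc3 from 0.854 to 2.18 CPM (slope 0.12, adjusted p = 0.351). Bbc3 was the BH3-only gene with a positive slope, and its fitted change of 0.63 over the score range rested on 18 to 39 counts.

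Bcl2l1, Trp53 and Bak1 had slopes close to 0. Bcl2l1 was at 137.04, 146.82, 151.01, 151.35, 149.87, 147.96, 136.05, 153.69 and 163.74 CPM in order of score (slope 0.02, adjusted p = 0.438), a fitted change of 0.10 over the score range with a 95% interval from -0.09 to 0.28. Trp53 ranged from 22.11 to 30.86 CPM (slope 0.01, adjusted p = 0.880), with a fitted change of 0.03 and an interval from -0.26 to 0.33. Bak1 ranged from 12.63 to 17.20 CPM (slope -0.00, adjusted p = 0.979). The slope of Bcl2l1 was slightly below 0 on the FPKM scale (-0.0041), as was that of Trp53 (-0.02), and that of Bak1 changed sign between fits.

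**Figure D3:**
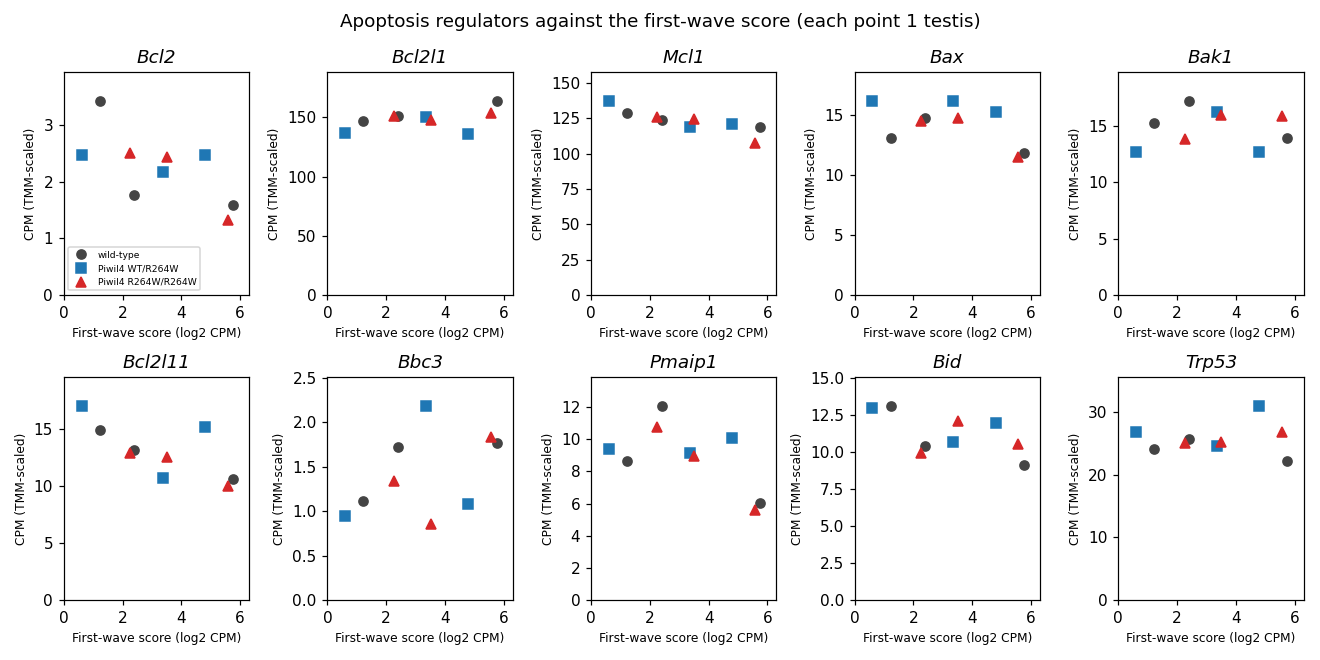
TMM-scaled CPM (y axis, from 0, a separate scale for each gene) of each regulator against the first-wave score (x axis, mean log2 CPM of 19 spermatid genes). Each point is 1 testis and its shape and colour give the genotype; Bcl2, Bax and Pmaip1 are lowest in the 2 testes with scores of 5.57 and 5.75, while Bcl2l1 stays between 136.05 and 163.74 CPM.

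These slopes depended on single testes. Without Piwil4 WT/R264W replicate 1, 4 of 10 regulators were called: Bcl2l11 (slope -0.13, adjusted p = 0.00736), Pmaip1 (-0.17, 0.0302), Mcl1 (-0.05, 0.0465) and Bcl2 (-0.21, 0.0483), all negative, by edgeR's quasi-likelihood test. Without that testis 6204 genes were called in all, 3426 rising and 2778 falling. With all testes in the fit, 4093 of 15771 genes tested (26%) were called. Calls thus increased over the whole table, and whether the regulators exceeded that increase was not tested. Piwil4 WT/R264W replicate 1 had the highest summed CPM of 12 Sertoli cell genes, 2469 CPM, while wild-type replicate 1 had the lowest, 1696 CPM. The part of this difference in the result was not tested. Of these 12 genes, 1 rose and 2 fell along the score, beside 17.5% of all genes rising and 8.41% falling. Their median slope was -0.06. Without Piwil4 WT/R264W replicate 2, Bcl2l11 was the only regulator called (adjusted p = 0.0420), beside 3042 genes rising and 1777 falling. Without any of the other testes 0 regulators were called. The Pmaip1 slope was -0.07 (adjusted p = 0.565) without wild-type replicate 1, and with homozygous replicate 3 left out it was -0.08 (adjusted p = 0.374). With wild-type replicate 3 left out, that of Bcl2 was -0.09 (adjusted p = 0.464).

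Summed by role and relative to their level, the prosurvival transcripts differed little between testes and the BH3-only transcripts differed most. The summed FPKM of Bcl2, Bcl2l1 and Mcl1, to which Bcl2 added only 0.311 on average, lay between 105.83 and 115.01 in all 9 testes. That of Bax and Bak1 lay between 18.72 (wild-type replicate 1) and 25.35 (Piwil4 WT/R264W replicate 2). The 4 BH3-only genes together were at 9.42 FPKM in wild-type replicate 1 and 9.55 in Piwil4 R264W/R264W replicate 3, below the 11.39 to 14.94 FPKM of the other 7 testes. The same 2 testes had the highest ratios of prosurvival to effector FPKM, 5.72 and 5.08, compared with 4.33 to 4.77 elsewhere. By genotype this ratio was 5.02 ± 0.610 in wild-type, 4.53 ± 0.194 in Piwil4 WT/R264W and 4.78 ± 0.289 in Piwil4 R264W/R264W testes (SD, n = 3 each), with overlapping ranges. The ratio of Bax to Bcl2 ran from 30.4 to 74.2 and carries the imprecision of the few Bcl2 counts.

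**Figure D4:**
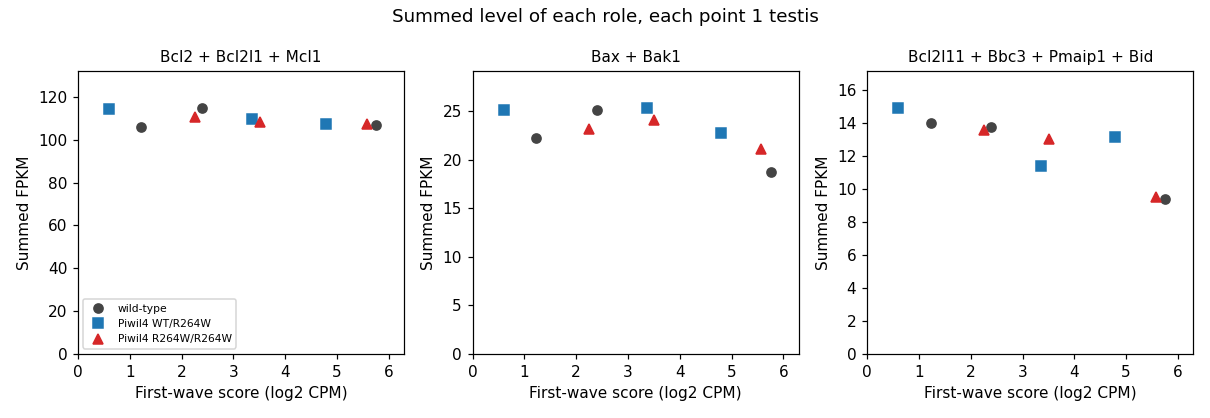
Summed FPKM (y axis, from 0) of the prosurvival genes (left), the effectors (middle) and the BH3-only genes (right) against the first-wave score (x axis). Each point is 1 testis; the BH3-only sum is 9.42 and 9.55 FPKM in the 2 testes with the highest scores and 11.39 or more in the others.

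Other genes of the pathway did change along the score, mostly downward. Of the 55 other apoptosis genes tested, 4 rose and 13 fell (edgeR's quasi-likelihood test, adjusted p under 0.05), beside 17.5% of all genes rising and 8.41% falling. The median slope was -0.05 for these genes, -0.05 for the 10 regulators and -0.01 for all genes. Leaving out wild-type replicate 1 or homozygous replicate 3 reduced the 13 falls to 4. They numbered 5 without wild-type replicate 3, 6 without homozygous replicate 1, 7 without homozygous replicate 2 or heterozygous replicate 3, and 18 without heterozygous replicate 1. The rises stayed between 3 and 5.

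The rise of Bcl2l14 was the steepest among the 55 other apoptosis genes tested. This gene encodes BCL-G, a BCL2 family protein known from the testis. In increasing order of score it was at 7.25, 9.64, 18.7, 18.5, 40.3, 33.2, 56.0, 87.8 and 96.8 CPM. It thus followed the score closely in all 3 genotypes, with 13.4 times as much in the highest as in the lowest testis (slope 0.71, SE 0.033, adjusted p = 2.51e-09). An antisense transcript overlaps 14.1% of its exons in GENCODE.

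The 3 other rises were smaller. Ppm1d, which encodes the phosphatase WIP1 that restrains p53 signalling, ran from 107.6 to 288.5 CPM (slope 0.27, adjusted p = 8.16e-07). Usp7, a deubiquitinase that acts on p53 and MDM2, had a slope of 0.10 (adjusted p = 0.000380). Vdac2, a channel of the outer mitochondrial membrane that binds BAK, had a slope of 0.07 (adjusted p = 0.0170), and its call was lost without any 1 of 5 testes and in both limma fits on FPKM.

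The larger falls were in death-promoting and death-restraining genes alike. Bmf, a BH3-only gene, fell with a slope of -0.17 (adjusted p = 0.00857), from 8.14 CPM in the testis with the lowest score to 4.12 in its lowest testis. Casp8, the initiator caspase of death receptors, fell with a slope of -0.17 (adjusted p = 0.00311), from 11.7 CPM in its highest to 5.32 CPM in its lowest testis. Xiap, which inhibits caspases, fell with a slope of -0.13 (adjusted p = 0.00133). These 3 calls, like those of Bcl2l14, Ppm1d and Usp7, held in all 18 alternative fits.

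Cflar, which blocks Casp8 activation, fell with a slope of -0.10 (adjusted p = 0.0432), and Apaf1, the scaffold of the apoptosome, with a slope of -0.10 (adjusted p = 0.0328). The calls were lost in several alternative fits, 9 of 18 for Cflar and 8 of 18 for Apaf1. The single testes whose omission ended the call were wild-type replicates 1 and 3 and homozygous replicates 1, 2 and 3 for both genes, and also heterozygous replicate 3 and wild-type replicate 2 for Cflar. The Cflar call was also lost with DESeq2 size factors in edgeR (adjusted p = 0.0542) and with limma on log2(FPKM + 0.1) (adjusted p = 0.0503). The Apaf1 call was also lost with both limma fits (adjusted p = 0.177 and 0.172) and with the replicate number as a block (adjusted p = 0.0697). Over all fits adjusted p reached 0.162 for Cflar and 0.305 for Apaf1.

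Among the caspase genes, Casp2 (adjusted p = 0.0257) and Casp9 (adjusted p = 0.0169) fell as well as Casp8. Of the 8 apoptosome and mitochondrial factors 1 rose and 2 fell, of the 8 tested other BCL2 effectors and BH3 proteins 1 rose and 2 fell, and the 1 tested other prosurvival gene, Bcl2l2, fell. Of the 5 inhibitors of apoptosis 0 rose and 1 fell, of the 7 tested death receptor genes 0 rose and 1 fell, and of the 20 tested p53 regulators and targets 2 rose (Ppm1d and Usp7) and 2 fell. The 2 that fell were Ccng1 and Trp53inp1, both p53 targets. Cdkn1a and Mdm2, also p53 targets, were not called. Beside these counts by class, 17.5% of all genes tested rose and 8.41% fell. Whether any class differed from those shares was not tested.

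**Figure D5:**
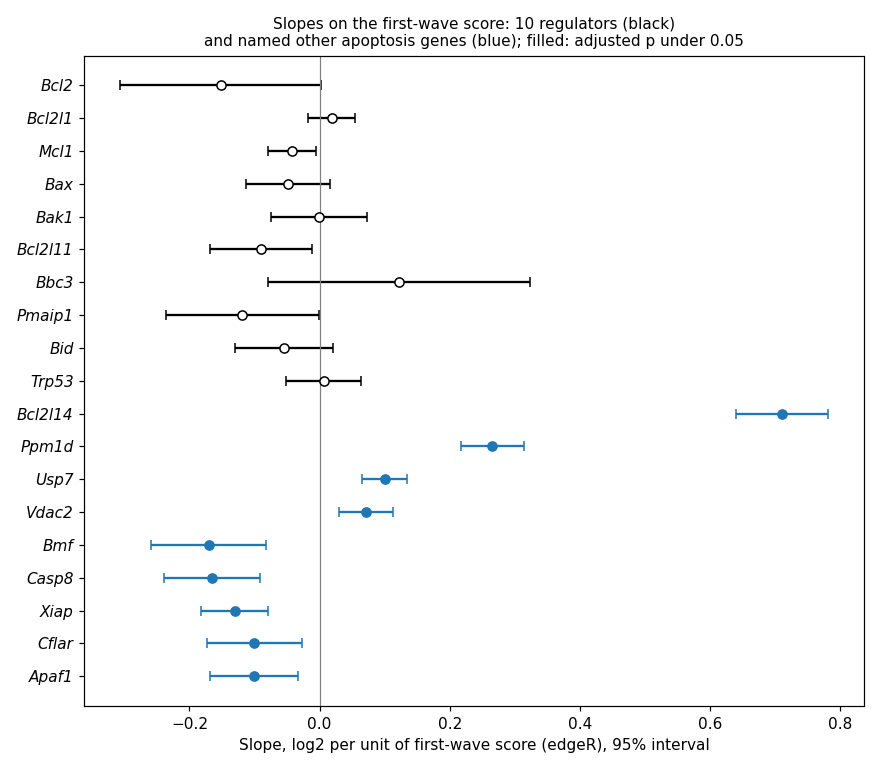
Slope on the first-wave score (x axis, log2 per unit, with 95% intervals as bars) of the 10 regulators (black) and of 9 other apoptosis genes named in the text (blue); filled points passed an adjusted p of 0.05. No regulator is filled, whereas Bcl2l14 stands far to the right at 0.71.

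For the 3 regulators with a log2 CPM range over 1, the genes of the table with the most similar pattern over the 9 testes were found by the root mean square difference of centred log2 CPM. For Bcl2 these were Vamp9 (0.156) and Mb21d2 (0.157), for Bbc3 Ngfr (0.20) and Jph3 (0.212), and for Pmaip1 Efemp1 (0.119) and Tpra1 (0.121). The likeness is given as a description over 9 testes that share library and depth effects.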

How the data were processed

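Polyadenylated RNA of 9 testes of 3-week-old mice was sequenced, and samples were grouped by the genotype and replicate number in the labels, which the table's column names match. The authors filtered reads with fastp (version 0.18.0) and assembled mapped reads with StringTie (version 1.3.1). The submitters' processing notes name build mm39 and DESeq2, and the aligner and counting tool are not given in the sources used here. The authors deposited an FPKM value and an unscaled estimated count for each gene and testis. All estimated counts of the regulators were whole numbers, as were 89.2% of the deposited estimated counts overall. Depth was 17964135 to 24279056 counts per testis, and intervals cover the modelled spread only.

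Estimated counts were rounded. After filterByExpr and TMM scaling, edgeR (version 4.0.16, under R version 4.3.3) gave a two-sided quasi-likelihood test on each pair of genotypes and on the first-wave score with genotype as covariate, with Benjamini-Hochberg adjustment over all genes tested. The score was the mean log2 CPM (prior count 1) of 19 spermatid genes. DESeq2 (version 1.42.0), limma (version 3.58.1) on log2(FPKM + 0.1) or log2(FPKM + 1) (mean FPKM at least 0.5, which leaves out Bcl2), other scalings and filters, a replicate block and leaving out each testis were alternatives.

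The 10 regulators were taken by symbol. Of the other 63 apoptosis genes, those called between genotypes and up to 6 rises and 6 falls on the score were named, of which 1 is not reported here. The regulators, these lists and the 12 cell type and tissue lists were chosen with earlier results of these data known. Exon overlaps came from GENCODE vM21 (22283 of 22337 identifiers matched) and promoter windows from RefSeq, both on GRCm38 rather than mm39, so no gene coordinates of the table are given.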

Additional observations from a re-analysis of the deposited data

How the results depend on the processing

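The genotype results rest on 3 testes a group, and Bcl2 and Bbc3 on few counts. No regulator was called between genotypes in any alternative. Over the whole table, DESeq2 called 1 gene in homozygous (Piwil4 R264W/R264W) against wild-type testes and 5 against heterozygous (Piwil4 WT/R264W) testes, where edgeR called 0. On the first-wave score, regulators called rose from 0 to 1 (Bcl2l11) with limma on log2(FPKM + 0.1) or log2(FPKM + 1). Beside it, 1819 genes rose and 1974 fell with log2(FPKM + 0.1), and 1960 rose and 2354 fell with log2(FPKM + 1). With no genotype term 2 regulators were called (Bcl2l11 and Mcl1), beside 3041 genes rising and 1843 falling. Leaving out each testis gave 0 to 4 regulators and 2055 to 6204 genes called, compared with 4093. The lowest came without wild-type replicate 1, and without wild-type replicate 3, Piwil4 WT/R264W replicate 3 and Piwil4 R264W/R264W replicate 3 it was 2408, 2697 and 2445. Of the genes called on the score, 67.6% rose, but only 48.0% and 45.4% did with limma on log2(FPKM + 0.1) and log2(FPKM + 1), and 55.2% to 85.3% without single testes. The cause was not tested.

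The main tests did not pair the samples by replicate number. Deviations of same-numbered samples from their genotype means correlated between -0.73 and 0.78, and not every sample correlated best with its own number. These deviations include the differences in first-wave score, so they cannot show whether a number stands for a shared origin. With the replicate block in edgeR, 1 regulator was called on the score (Pmaip1, slope -0.17, adjusted p = 0.0303), beside 2494 genes rising and 833 falling. Between genotypes 0 regulators were called.

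Several values that passed no test changed sign between fits. For Piwil4 R264W/R264W against wild-type, the log2 fold change of Bid (main value -0.00022) was 0.01248 with DESeq2, 0.01247 with DESeq2 size factors, 0.0082 with at least 10 counts in every library, 0.00046 with all 9 testes in one fit, 0.047 with the score as covariate and 0.011 with the replicate block. With limma on log2(FPKM + 0.1) it was 0.0165 for Bid, 0.0052 for Bcl2l1, 0.0147 for Bak1 and 0.0290 for Pmaip1, and with log2(FPKM + 1) 0.0115, 0.0051, 0.0127 and 0.0302. With the score as covariate it was 0.013 for Bcl2 and 0.0011 for Pmaip1. Against Piwil4 WT/R264W, Bbc3 was 0.098 and 0.032 in the limma fits. The slope of Bak1 was 0.0026 with DESeq2, 0.0032 with DESeq2 size factors, 0.0024 with at least 10 counts, 0.0027 with no genotype term, 0.0070 with the score from 7 acrosome genes and 0.019 with the replicate block. In the limma fits the slopes of Bcl2l1 were -0.0041 and -0.0040 and those of Trp53 -0.021 and -0.020.

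Leaving out each testis in turn also changed signs. For Piwil4 R264W/R264W against wild-type the log2 fold changes then ranged from -0.058 to 0.017 for Bcl2l1, -0.034 to 0.14 for Bax, -0.094 to 0.071 for Bak1, -0.29 to 0.21 for Pmaip1, -0.31 to 0.33 for Bcl2, -0.11 to 0.16 for Bid, -0.48 to 0.047 for Bbc3 and -0.087 to 0.017 for Mcl1. Against Piwil4 WT/R264W they ranged from -0.17 to 0.0042 for Trp53, -0.35 to 0.40 for Bbc3, -0.32 to 0.059 for Bcl2 and -0.38 to 0.046 for Pmaip1. For Piwil4 WT/R264W against wild-type they ranged from -0.13 to 0.50 for Bcl2, -0.054 to 0.069 for Mcl1, -0.12 to 0.40 for Pmaip1, -0.58 to 0.073 for Bbc3 and -0.0033 to 0.33 for Bcl2l11. The slopes ranged from -0.029 to 0.037 for Bak1 and -0.020 to 0.038 for Trp53.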

Other observations

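Marker genes of the cells of the testis were also counted along the first-wave score (edgeR's quasi-likelihood test, adjusted p under 0.05). Over all genes tested, 17.5% rose and 8.41% fell. All 19 spermatid genes rose, which the score itself fixes. Of 12 genes of pachytene spermatocytes, which include Pgk2 and Ldhc for energy metabolism in meiotic cells, 9 rose and 1 fell, and their summed level ran from 8486 to 11610 CPM over the testes. Of 10 early meiotic genes, which include Sycp3 of the synaptonemal complex and Dmc1 of meiotic recombination, 1 rose and 5 fell. Of 11 tested spermatogonial genes 1 rose and 2 fell, with a summed level from 263.3 to 353.6 CPM. The part of these shifts in the slopes of the apoptosis genes was not tested.

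Among the somatic and extraneous lists, 2 of 8 Leydig cell genes rose and 0 fell, beside 17.5% of all genes rising and 8.41% falling. The summed level of the Leydig cell genes ran from 227.7 to 492.0 CPM. Of 6 peritubular myoid genes 1 rose, of 6 endothelial genes 0 were called, and of 8 tested genes of macrophages and leucocytes 1 rose. Of 5 red blood cell genes 1 fell, of 2 tested muscle genes and 4 tested adipose genes 0 were called, and of 2 tested epididymal genes 1 rose. The endothelial, muscle and adipose genes held 0, 0 and 2 genes at an unadjusted p under 0.05, beside 39% of all genes. The red blood cell genes held 4 of 5 (median slope -0.21). The Leydig, myoid, macrophage and epididymal lists held 2, 2, 2 and 1. DESeq2 and limma were fitted over all genes, but their calls were not counted for these lists. Adipose genes were highest in Piwil4 R264W/R264W replicate 3, at 20.1 CPM in sum.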
